A study of Homo sapiens with 47 samples.

Results

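The genes described here were 9 proneural and early neuron genes, taken by name as a fixed list out of the 58051 genes counted in each of 47 libraries. They were the basic helix-loop-helix (bHLH) transcription factors NEUROG1, NEUROG2, NEUROD1, NEUROD4 and NHLH1, and the neuron genes ELAVL3, DCX, STMN2 and TUBB3. Each symbol matched 1 gene of the annotation, and all 9 passed the filter on low counts, NEUROG1, NEUROG2, NEUROD1 and NEUROD4 only through groups later than t0, where all 4 were at or under the detection floor. All libraries came from WA09 (H9), an established line of human embryonic stem cells (hESCs), with no genetic change named in any group. Undifferentiated hESCs (t0) were kept feeder-free in mTeSR1. Neuromesodermal progenitor (NMP)-like cells were collected after 36 h in N2B27 medium lacking vitamin A, to which AGN193109, CHIR-99021, Y-27632 and rhFGF2 had been added. CHIR-99021 activates WNT signalling by inhibiting GSK3, AGN193109 blocks retinoic acid receptors and Y-27632 inhibits ROCK. Cultures replated in that same mix, which hold pre-neural progenitors (PNPs) and neural crest (NC) cells, were collected at each passage from P1 to P10. At P5 and P8 they were also separated by selective detachment into an epithelial fraction enriched in PNPs (EPI) and a mesenchymal fraction enriched in NC cells (MES), so the fractions are enrichments and not pure populations. Each of the 16 groups held 3 separate differentiations, r1 to r3, except P9, which held r1 and r2. This gave 35 whole-culture libraries over 12 time points and 12 fraction libraries. The question asked of these 9 genes was how far cultures kept in this mix move toward neurogenesis.

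Proneural bHLH factors commit progenitors of the neural tube and of the sensory ganglia to a neuronal fate. They bind E-box DNA as dimers with E proteins such as TCF4 and TCF12. They switch on Notch ligands such as DLL1, through which neighbouring cells are held as progenitors by HES repressors, and ID proteins block them by capturing the E proteins. Neurogenins act early in this cascade. NEUROD1, NEUROD4 and NHLH1 follow as cells leave the cell cycle, and the young neuron then makes the RNA-binding protein ELAVL3 and the microtubule proteins DCX, STMN2 and TUBB3. TUBB3 is also made by some dividing progenitors and stem cell lines.

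Promoter sequences are printed for the neurogenins and for NEUROD4 and NHLH1, the more abundant of the bHLH members downstream, so that the DNA letters that bHLH factors and HES repressors are known to read can be seen. They come from RefSeq (GRCh38.p14), run 5′ to 3′ on the strand of the gene, and cover the 250 bases before the start site and the 30 bases after it. Promoter entries were used for 7 of the 9 members, and none was used for STMN2 or ELAVL3. Capitals mark each E-box (CANNTG, which reads the same on both strands) and each N-box (CACNAG, or CTNGTG on the other strand). The windows are chr5:135535935-135536214 on the minus strand for NEUROG1, chr4:112516151-112516430 on the minus strand for NEUROG2, chr12:55019724-55020003 on the plus strand for NEUROD4 and chr1:160366821-160367100 on the plus strand for NHLH1.
NEUROG1: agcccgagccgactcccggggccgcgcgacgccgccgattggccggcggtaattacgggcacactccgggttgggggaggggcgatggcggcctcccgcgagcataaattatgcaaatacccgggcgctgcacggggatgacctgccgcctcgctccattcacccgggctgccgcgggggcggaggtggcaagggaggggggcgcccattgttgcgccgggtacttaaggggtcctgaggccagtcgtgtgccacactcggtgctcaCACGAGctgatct
NEUROG2: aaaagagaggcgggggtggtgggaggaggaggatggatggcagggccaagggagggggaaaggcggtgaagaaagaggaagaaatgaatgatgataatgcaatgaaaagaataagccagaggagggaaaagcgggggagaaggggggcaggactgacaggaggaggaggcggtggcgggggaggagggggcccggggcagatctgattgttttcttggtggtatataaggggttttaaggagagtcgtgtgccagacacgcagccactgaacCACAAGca
NEUROD4: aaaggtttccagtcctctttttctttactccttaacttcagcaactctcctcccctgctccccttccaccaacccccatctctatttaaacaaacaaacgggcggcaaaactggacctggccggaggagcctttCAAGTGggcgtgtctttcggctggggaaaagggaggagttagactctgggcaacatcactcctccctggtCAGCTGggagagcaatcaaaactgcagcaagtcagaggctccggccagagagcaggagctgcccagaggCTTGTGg
NHLH1: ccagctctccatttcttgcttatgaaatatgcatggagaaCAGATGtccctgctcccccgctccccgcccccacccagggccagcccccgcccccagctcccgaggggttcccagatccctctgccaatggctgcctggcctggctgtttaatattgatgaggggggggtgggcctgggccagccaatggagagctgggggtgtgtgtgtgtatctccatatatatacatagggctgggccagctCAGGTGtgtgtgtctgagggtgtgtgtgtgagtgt

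No CANNTG stood in the NEUROG1 or NEUROG2 window, and each held 1 N-box, CACGAG starting 18 bases and CACAAG starting 23 bases from the start site. The NEUROD4 window held E-boxes at -116 (CAAGTG) and -46 (CAGCTG) and an N-box at 24 (CTTGTG). The NHLH1 window held E-boxes at -210 (CAGATG) and -5 (CAGGTG) and no N-box. Among the 35116 promoters of the table cut to the same 280 bases, 66.2% held a CANNTG and 35.8% a CACNAG. The narrower E-boxes CAGATG, read on the other strand as CATCTG, and the palindrome CAGCTG are both also counted under CANNTG and stood in 13.8% and 16.4%. NEUROD1 held CACGAG at -1 and no E-box. The 2 TUBB3 entries held no E-box, and the 3 entries of DCX held 3, 1 and 0. These matches describe the letters in the windows and not bound sites.

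The libraries held 13029491 to 64082859 expected counts (median 47292229), an unequal depth that leaves the shallow P6 r3, P4 r3 and P1 r1 libraries with the coarsest low values. Levels below are counts scaled to a common library size (normalized counts), which compare 1 gene between libraries. TPM values, which adjust the transcript level for gene length, are used where the levels of members are compared with each other. Sums of markers and the shares of overlapping genes are on normalized counts and are not adjusted for length. A level at or under 3 counts in a library was treated as not told from 0. The labelled cell types were read against defining markers. At P10, r1 stood apart from r2 and r3, with 12403 normalized counts of the progenitor gene SOX2 against 31 and 44.8, and 183 of the NC gene TFAP2A against 6398 and 6903. The P1 r1 library still held 29163 normalized counts of the pluripotency gene POU5F1, against 641 and 170 in r2 and r3. At 36 h, r3 held the most of the mesoderm gene TBX6, at 10399. At P7 and P8, r3 held the most of the NC gene TFAP2B, at 11992 against 149 and 927, and at 13998 against 289 and 1994. The NC gene PAX3 was instead highest in r2 at both passages, so the NC markers did not all single out r3. Member values that rest on these libraries are given with and without them or per library. In such bulk libraries fewer cells of a type and less RNA per cell cannot be told apart. The differentiations were separate experiments on 1 line, so errors and p-values cover the spread between experiments and not between lines.

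Over the 12 whole-culture time points, the levels of 5 of the 9 genes changed, and the 5 were the neurogenins, NEUROD4, DCX and STMN2. The adjusted p (edgeR quasi-likelihood F-test, Benjamini-Hochberg) was 2.5e-06 for NEUROG2, 2.6e-05 for NEUROG1, 2.6e-04 for DCX, 4.4e-04 for STMN2 and 0.0032 for NEUROD4. NHLH1 (0.015), ELAVL3 (0.084), NEUROD1 (0.18) and TUBB3 (0.51) did not pass at a false discovery rate of 1%. The neurogenins and NEUROD4 had passed the count filter only through later groups, so their p-values and the count of 5 are a description. The background was wide, since 55.8% of the 21750 genes tested passed. The count rested on which differentiations were present. Without r2 only NEUROG2 (0.0024) and STMN2 (0.0090) passed, and without r3 NEUROG1 (0.0052), NEUROG2 (0.0066) and DCX (0.0085) did. Without r1 the count was again 5, with TUBB3 (0.0016) in and NEUROD4 (0.019) out.

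**Figure D1:**
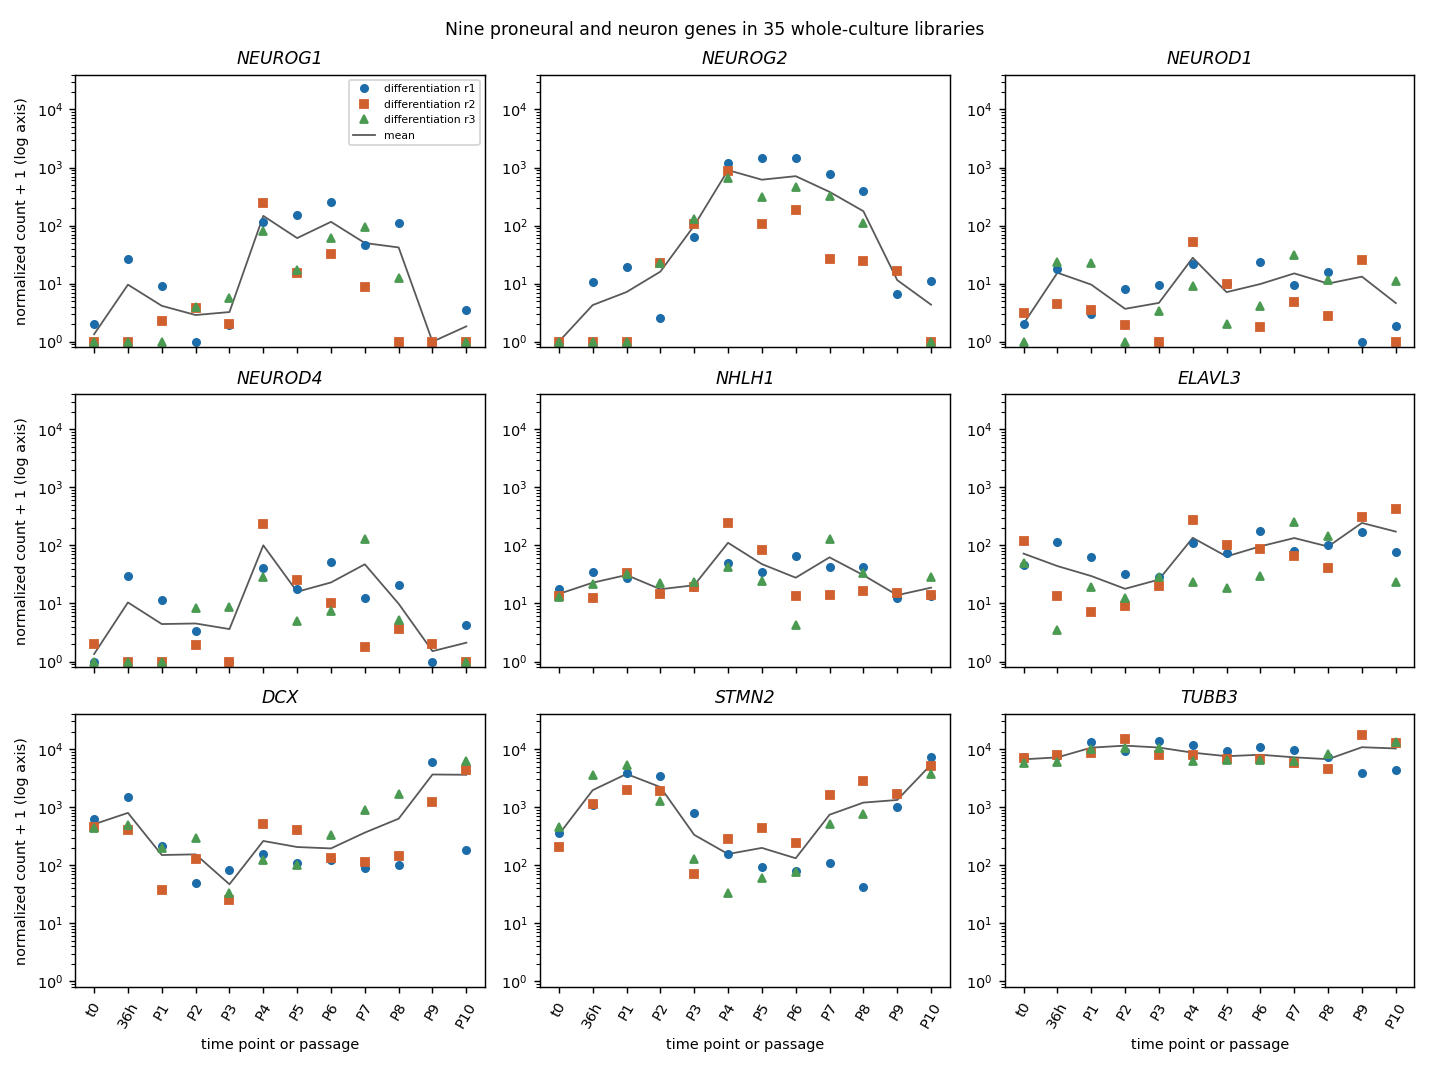
Normalized counts plus 1 (log axis) of the 9 genes in the 35 whole-culture libraries, by time point; markers are single differentiations and the grey line joins group means. NEUROG2 sits at 0 in the 3 t0 libraries, lies between 664 and 1174 at P4 and returns to at most 15.2 at P9 and P10, while TUBB3 is at 3928 or more throughout.

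NEUROG2 (chr4:112513516-112516172, minus strand, GRCh38 with GENCODE 29 models), the neurogenin of ventral and intermediate cord progenitors and of early sensory precursors, had the highest mean TPM of the 5 bHLH genes at P3 to P8, and NHLH1 had the highest at t0, 36 h, P1, P9 and P10. It had no count in the 3 t0 libraries. At 36 h and at P1 only r1 had any, at 9.82 and 18.5 normalized counts. The P3 libraries held 61.4, 104 and 131 normalized counts, and the P4 libraries 1174, 865 and 664 (mean 901 ± 257 SD, n = 3). All 3 differentiations were thus high at P4, within a 1.77-fold range. From P5 on they parted. The P5 levels were 1434, 104 and 309 normalized counts in r1, r2 and r3 (616 ± 716 SD, n = 3), the P6 levels 1470, 188 and 468, and the P7 levels 788, 25.4 and 328. The P8 levels were 396, 23.4 and 108 (176 ± 195 SD, n = 3). Differentiation r1 was the highest at all 5 passages from P4 to P8, and r1 stood 13.8-fold above r2 at P5 and 31.0-fold above it at P7. The 2 P9 libraries held 5.75 and 15.2 normalized counts, and the P10 libraries 10.0, 0 and 0. No P9 or P10 library reached the lowest P8 library.

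NEUROG2 and NEUROG1 were the members that rose between t0 and P5, 2 of 9 called higher at a false discovery rate of 1% and a 2-fold change or more, where 10.0% of all genes were called higher. Both had passed the filter only through groups later than t0, so the count is a description and not support. The median log2 difference over the 9 was 1.85, beside 0.01 over all genes tested. Its sign rests on the 4 members at or under the floor at t0, since the median of the other 5 was -0.27, the value of ELAVL3. With all t0 libraries at 0, NEUROG2 was at least 215-fold higher at P5 than the floor of 3 counts per library (adjusted p = 8.4e-05, edgeR), and the groups did not overlap. The P5 r1 library carried much of that size, and without it the bound was 72.0-fold. It passed without any 1 of the differentiations, at an adjusted p of 7.2e-04, 0.0029 and 0.0099. Between P5 and P8 no member was called by edgeR, DESeq2 or limma, where edgeR called 0.00920% and DESeq2 0.979% of all genes. There 1 of 9 members (STMN2) had an unadjusted p under 0.05, as had 13.3% of all genes. The NEUROG2 difference there was -1.79 on the log2 scale (SE 1.04, adjusted p = 0.48). Between P8 and the pooled P9 and P10 libraries, edgeR again called none, where 1.66% of all genes were called. NEUROG1, NEUROG2 and DCX, 3 of 9, had an unadjusted p under 0.05 there, as had 26.2% of all genes. DESeq2 called 2 members and 5.02% of all genes, and limma on TPM called no member. The NEUROG2 difference was -4.35 on the log2 scale (SE 1.10, adjusted p = 0.016), and it passed once the P10 r1 library was left out (adjusted p = 0.0085). P10 r1 held the most NEUROG2 of the P10 libraries, at 10.0 normalized counts, so that pass is a description and not support. A short antisense gene, AC023886.1, overlaps NEUROG2 and held up to 11.1% of its level, and whether reads were assigned by strand is not given in the sources used here.

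NEUROG1 (chr5:135534282-135535949, minus strand) is a neurogenin of sensory ganglia and dorsal cord. It followed the same outline at a lower level. A single count stood in the t0 libraries, and at 36 h only r1 was above the floor, at 25.8 normalized counts. The P3 levels were 0.96, 1.05 and 4.71, and the P4 levels 116, 243 and 79.6 (146 ± 85.9 SD, n = 3). All 3 differentiations were thus higher at P4 than at P3, as they were for NEUROG2. At P5 the levels were 149, 14.1 and 16.3 normalized counts (59.9 ± 77.4 SD, n = 3), at P6 253, 31.2 and 60.5, and at P8 111, 0 and 11.5. At these 3 passages r1 was well above r2 and r3, but at P7 r3 was the highest, with 94.3 beside 45.3 in r1 and 7.68 in r2. The P9 libraries had none and the P10 libraries 2.51, 0 and 0. The ratio of NEUROG1 counts at P5 to those at t0 was 219 (95% counting interval 39.0 to 8704, from 218 counts against 1), and the adjusted p was 0.0039. Of the 218 counts 189 were in r1, and without that P5 library the ratio was 48.6 (8.06 to 1985, 29 counts against 1). That call was lost without any 1 of the differentiations (adjusted p 0.029, 0.024 and 0.032 without r1, r2 and r3). Against P8, P9 and P10 differed by -6.44 on the log2 scale (SE 1.67, adjusted p = 0.018, 0.017 without P10 r1), a size that depends on counts at or near 0.

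Downstream of the neurogenins, NEUROD4, NHLH1 and NEUROD1 stayed low. NEUROD4 (chr12:55019945-55030014, plus strand), a neurogenin target in neuron precursors, held 39.5, 231 and 27.4 normalized counts at P4 (99.4 ± 114 SD, n = 3), its highest group. At t0 it held 0, 1.04 and 0, and at P5 16.6, 23.9 and 4.07. The P5 to t0 ratio was 47.3 (95% counting interval 8.08 to 1907, 47 counts against 1) and did not pass (adjusted p = 0.055). At P7 the r3 library stood out with 127 normalized counts beside 11.5 and 0.768, and the 5 P9 and P10 libraries held at most 3.34. P7 r3 also held the most of the NC gene TFAP2B at P7, while the NC gene PAX3 was highest in r2. The part of NC cells was not tested. NHLH1 (chr1:160367067-160372848, plus strand), a bHLH gene of newly born neurons, had a low level already at t0, with 16.6, 12.4 and 11.9 normalized counts. At P4 it held 49.2, 241 and 41.2 (110 ± 113 SD, n = 3), above all t0 libraries. At P5 it held 34.0, 82.7 and 23.4, a log2 difference from t0 of 1.85 (SE 0.81, adjusted p = 0.064). At P7 r3 was again the high library, with 129 normalized counts beside 41.5 and 13.1. NEUROD1 (chr2:181673088-181680876, minus strand), which drives neuron maturation, never exceeded 51.5 normalized counts. Its P4 levels were 21.1, 51.5 and 8.23 (mean 26.9, n = 3), and its P5 to t0 ratio was 6.71 (95% counting interval 1.99 to 35.3, adjusted p = 0.21). NEUROD1 overlaps the same-strand gene CERKL, which held 41% to 7500% of its level. Reads can be split between the 2 genes, so the NEUROD1 values are uncertain. The counting intervals cover counting error only.

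Whether the library highest for NEUROG2 was also the highest for these downstream genes differed by passage. At P6 and P8 it was, and at P4, P5 and P7 it was not. P4 r2, with the most NEUROD1, NEUROD4 and NHLH1 of the P4 libraries, held 865 normalized counts of NEUROG2 against 1174 in r1. P7 r3, with the most NEUROD4 and NHLH1 of P7, held 328 against 788 in r1. P6 r1, where NEUROG2 was at 1470, was also highest for NEUROD4 (50.4), NHLH1 (64.8) and NEUROD1 (22.6) of the P6 libraries, as P8 r1, with NEUROG2 at 396, was for NEUROD4 (19.9), NHLH1 (41.2) and NEUROD1 (14.9) at P8. At 36 h, r1 was the only library with NEUROG1, NEUROG2 and NEUROD4 all above the floor. The 36 h r1 library also held 12991 normalized counts of SOX2, against 1435 and 267 in r2 and r3, and 7.37 of the mesoderm gene MSGN1, against 1374 and 5687. Their part in the member counts was not tested.

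The neuron genes did not share 1 course. ELAVL3 (chr19:11451326-11481046, minus strand), an RNA-binding protein of postmitotic neurons, held 45.7, 119 and 49.2 normalized counts at t0. At P4 its levels were 111, 269 and 22.0, at P7 80.7, 65.3 and 253, and at P10 75.2, 418 and 22.0. The high P4 r2 and P7 r3 libraries were those that stood out for NEUROD4 and NHLH1. No group lay wholly above t0 except P9, with 172 and 313 in 2 libraries. ELAVL3 differed between P5 and t0 by less than its error (adjusted p = 0.85). A same-strand gene, AC008481.3, overlaps it and held up to 62.5% of its level, which leaves low ELAVL3 values uncertain.

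DCX (chrX:111293779-111412429, minus strand), a microtubule-binding protein of migrating young neurons, was measured in every library. The t0 levels were 635, 452 and 436 normalized counts (508 ± 111 SD, n = 3), and at P3 they were 81.6, 24.2 and 32.2 (mean 46.0). It was thus lowest in the whole cultures at the passage before the one with the highest neurogenin means. At P4 the levels were 153, 509 and 121, at P5 109, 405 and 101, at P7 89.1, 113 and 890, and at P8 98.6, 144 and 1658. In r3 alone the level was already high at P7 and P8. These 2 r3 libraries also held the most of the NC gene TFAP2B at their passages, at 11992 and 13998. The NC gene PAX3 was highest in r2 at both. The part of NC cells in the DCX level was not tested. The P9 libraries held 6114 and 1204 normalized counts of DCX, and the P10 libraries 183, 4347 and 6318 (3616 ± 3132 SD, n = 3). Of the 5 late libraries, P10 r1, the one with SOX2 at 12403, was the only one under 1000. Against P8, P9 and P10 differed by 3.08 on the log2 scale (SE 1.11), which did not pass with it (adjusted p = 0.077) or without it (0.026). Between t0 and P5 the DCX difference was -1.16 (SE 1.09, adjusted p = 0.40).

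STMN2, on chromosome 8, encodes a tubulin-binding protein of growing axons. Its levels were 352, 206 and 453 normalized counts at t0 (337 ± 124 SD, n = 3). At 36 h they were 1091, 1145 and 3648 (1961 ± 1461), and at P1 3938, 1990 and 5282 (3737 ± 1655). All early libraries from 36 h to P2 stood above all t0 libraries. From P3 its levels were lower, at 153, 279 and 32.9 at P4 and at 78.2, 238 and 76.4 at P6 (mean 131). The highest neurogenin levels fell in that window. At P8 the levels were 40.4, 2807 and 748 normalized counts, a 69.5-fold range within 1 group. At P10 they were 7452, 5164 and 3658 (5425 ± 1911 SD, n = 3), so that here P10 r1 was the highest library and not the one apart. Differentiation r2 was the highest in all 8 groups of P5 to P8 and their fractions. The difference between 36 h and t0 was 2.59 on the log2 scale (SE 1.07) and did not pass (adjusted p = 0.12, edgeR). No member was called at 36 h by edgeR, DESeq2 or limma, where edgeR called 3.82% and DESeq2 6.28% of all genes. There 2 of 9 (STMN2 and NEUROD1) had an unadjusted p under 0.05, as had 26.1% of all genes. STMN2 differed by -1.09 (SE 1.07, adjusted p = 0.42) between P5 and t0, by 2.55 (SE 1.08, adjusted p = 0.29) between P8 and P5, and by 1.34 (SE 0.97, adjusted p = 0.41) between P9 with P10 and P8.

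TUBB3 (chr16:89921392-89938761, plus strand), the class III beta-tubulin used as a neuron marker, was high in every library, stem cells included. The t0 libraries held 7248, 7033 and 5755 normalized counts and the P5 libraries 9438, 6853 and 6376, a log2 difference of 0.23 (SE 0.41, adjusted p = 0.68). Whole-culture group means ran from 6679 at t0 to 11493 at P2. The late cultures were the most spread, with 3928 and 17656 at P9 and 4411, 12885 and 13527 at P10. In both, r1 was the low library. P9 r2 was the highest of all 47 libraries, and without r1 it is the only P9 library, so a fit without r1 is not read here. With all libraries, P9 and P10 differed from P8 by 0.64 on the log2 scale (SE 0.39, adjusted p = 0.30, edgeR). Overlapping genes held at most 0.443% of its level.

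**Figure D2:**
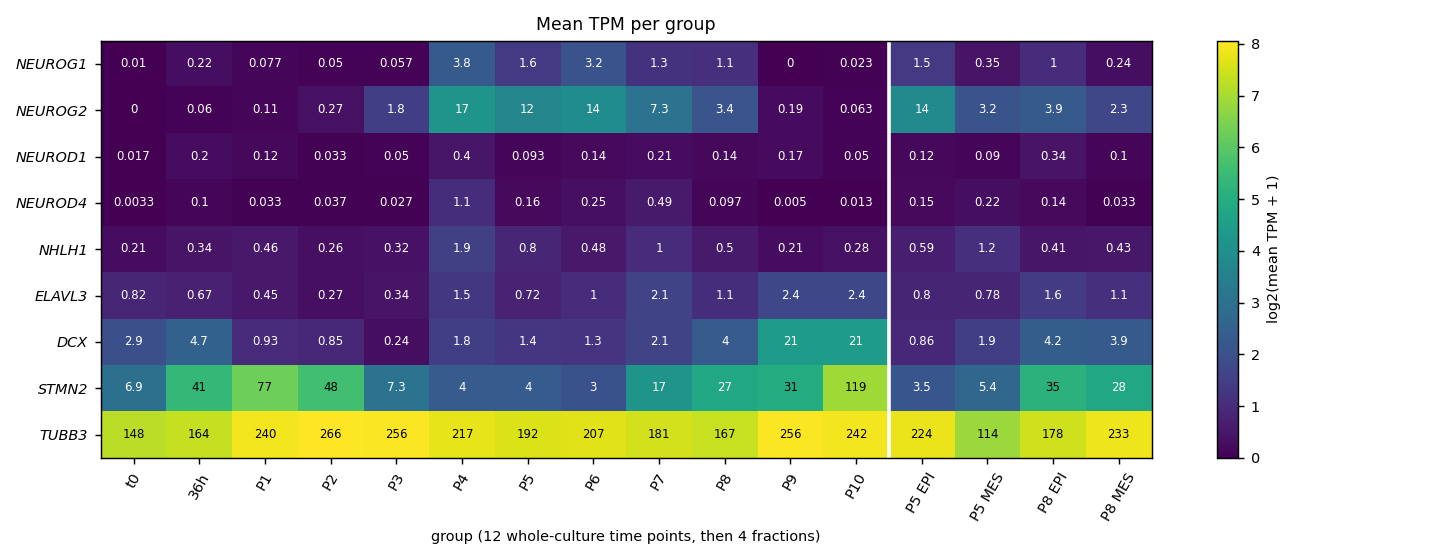
Mean TPM of each gene in each of the 16 groups, with the colour on a log2(mean TPM + 1) scale; columns are the 12 time points followed by the 4 fractions. TUBB3 leads every column, the highest bHLH mean is the 17.0 TPM of NEUROG2 at P4, and STMN2 runs from 3.05 at P6 to 119 at P10.

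Per length, TUBB3 led the members in every group, with a mean of 148 TPM at t0, 266 TPM at P2 and 114 TPM at its lowest in the P5 MES fraction. STMN2 had a mean of 6.90 TPM at t0, 76.9 TPM at P1, 3.05 TPM at P6 and 119 TPM at P10. NEUROG2 had a mean of 17.0 TPM at P4, 11.8 TPM at P5, 14.1 TPM at P6 and 3.40 TPM at P8. At P6 the NEUROG2 libraries, at 29.6, 3.52 and 9.22 TPM, overlapped those of STMN2, at 1.62, 5.97 and 1.55 TPM. NEUROG1 peaked at 3.84 TPM, NHLH1 at 1.86 TPM, NEUROD4 at 1.08 TPM and NEUROD1 at 0.403 TPM, all as group means at P4. Within P4 the r2 library carried most of the NEUROD4 and NHLH1. DCX had a mean of 0.243 TPM at P3 and 21.0 TPM at P9, and the group means of ELAVL3 stayed at or under 2.39 TPM.

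The EPI and MES fractions came from the same cultures, so each differentiation gives a pair. At P5 NEUROG2 was at 1728, 164 and 246 normalized counts in EPI and at 417, 60.3 and 31.0 in MES. It was lower in MES in 3 of 3 pairs (log2 ratios -2.05, -1.44 and -2.99), although the r1 MES library lay above the r2 and r3 EPI libraries. The fitted difference was -1.93 (SE 0.76, adjusted p = 0.15, edgeR). NEUROG1 was at 167, 3.96 and 0.877 normalized counts in EPI and at 37.8, 1.94 and 0 in MES (log2 difference -1.79, SE 0.82, adjusted p = 0.21), so it was above the floor in both fractions of r1 only. TUBB3 was at 11491, 7645 and 7448 in EPI and at 6218, 4333 and 3055 in MES, with no overlap (-0.93, SE 0.40, adjusted p = 0.19). Other members went the other way. DCX (log2 ratios 0.44, 1.57 and 0.62) and NHLH1 (0.22, 1.45 and 0.81) were higher in MES in 3 of 3 pairs. By the fitted difference 5 of the 9 members were higher in MES and 4 were lower. No member was called by edgeR, DESeq2 or limma, where 0% of the 18885 genes tested were called by edgeR and 4.41% by DESeq2, and 2 of 9 (NEUROG2 and TUBB3) had an unadjusted p under 0.05, as had 25.9% of all genes. With the pairs blocked within each passage, a fit chosen after seeing the data, 1.82% of genes were called and still no member. NEUROG2 was then at -2.11 (SE 0.43, adjusted p = 0.017), and TUBB3 at -0.98 (SE 0.16, adjusted p = 0.010, just past the 1% threshold and under 2-fold). Over the same P5 fractions, the summed level of SOX2, CDX2 and NKX1-2, markers of pre-neural progenitors, was 23545 to 34433 normalized counts in EPI and 4425 to 12033 in MES. The sum of 8 NC markers was 9806 to 13168 in EPI and 12415 to 25510 in MES. PAX3 alone of the 8 went the other way, at 4195 to 7323 in EPI and 1942 to 3314 in MES. The part of this difference in composition in the member values was not tested.

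**Figure D3:**
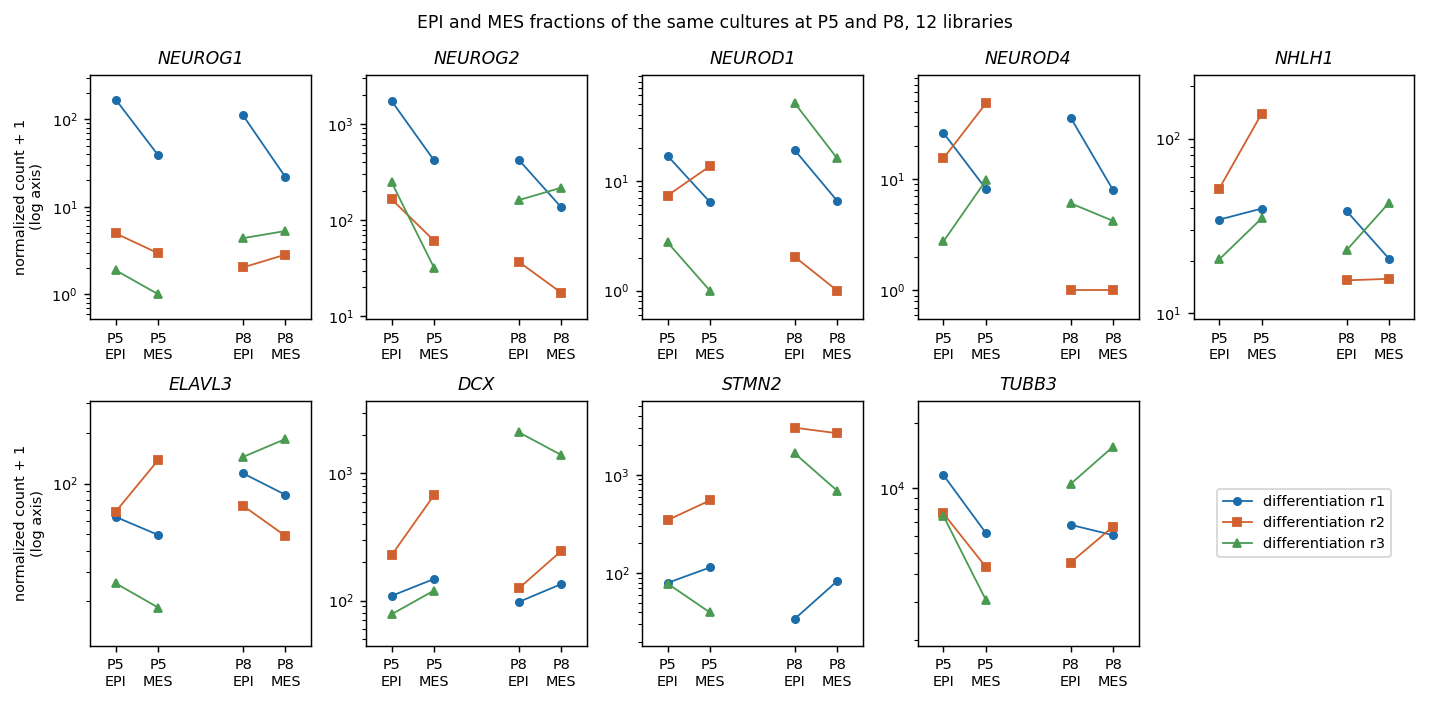
Normalized counts plus 1 (log axes, each gene on its own scale) in the EPI and MES fractions at P5 and P8; each line joins the 2 fractions of 1 differentiation. At P5, NEUROG2 and TUBB3 are lower in MES than in EPI in all 3 pairs, and NHLH1 and DCX are higher in MES in all 3. At P8 the pairs of these genes differ in direction.

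At P8 the EPI libraries held 421, 35.9 and 161 normalized counts of NEUROG2 and the MES libraries 135, 16.6 and 217, so the r3 pair went the other way. The marker sums overlapped between the P8 fractions. SOX2, CDX2 and NKX1-2 summed to 9817 to 31644 in EPI and 2583 to 21663 in MES, and the 8 NC markers to 12211 to 44777 and 17032 to 53615. In both fractions r3 held the most of TFAP2B, at 11321 in EPI and 13303 in MES, which is 1 of the 8 NC markers. The part of composition in the member values was not tested. NEUROG1 was at 110, 1.03 and 3.38 in EPI and 20.8, 1.84 and 4.29 in MES (-1.35, SE 0.95, adjusted p = 0.60). TUBB3 was at 6772, 4540 and 10454 in EPI and 6071, 6647 and 15522 in MES (0.38, SE 0.40, adjusted p = 0.74). None of the 3 tools called a member, edgeR called 0% and DESeq2 0.323% of all genes, and 0 of 9 had an unadjusted p under 0.05, as against 12.0% of all genes. That count depends on the block. With the pairs blocked within each passage, the fit chosen after seeing the data, edgeR again called no member and 0% of genes. NEUROD1 was then at -1.73 (SE 0.61, unadjusted p = 0.025, adjusted p = 0.18). NEUROG1 was at -1.65 (SE 0.61, unadjusted p = 0.03, adjusted p = 0.19). The change in the MES against EPI difference from P5 to P8 was 1.31 for TUBB3 (SE 0.57, adjusted p = 0.82) and 1.59 for NEUROG2 (SE 1.08, adjusted p = 0.85). No member passed this interaction test with any of the 3 tools, and of all genes 0% did by edgeR and 0.00530% by DESeq2. At an unadjusted p under 0.05 there was 1 of 9 (TUBB3), beside 6.10% of all genes. With the pairs blocked within each passage, edgeR gave TUBB3 the same 1.31 with a smaller error (SE 0.22, adjusted p = 0.26). No member and 0% of genes were called by that fit. A difference between the passages was therefore not shown.

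Within the fractions, STMN2 and DCX kept the spread between differentiations seen in the whole cultures. STMN2 was at 78.4, 345 and 77.2 normalized counts in P5 EPI and at 33.2, 3019 and 1650 in P8 EPI. In MES it was at 113, 548 and 38.7 at P5 and at 82.0, 2650 and 688 at P8. P8 was thus higher than P5 in r2 and r3 of both fractions and lower in r1 of both. The P8 to P5 difference was 2.72 in EPI (SE 1.14, adjusted p = 0.15) and 1.72 in MES (SE 1.09, adjusted p = 0.32). DCX in P8 was high in r3 alone, at 2101 in EPI and 1392 in MES beside 96.7 and 124, and 134 and 245, in r1 and r2. NEUROG2 in EPI differed by -1.67 between P8 and P5 (SE 0.75, adjusted p = 0.17), and TUBB3 in MES by 0.94 (SE 0.42, adjusted p = 0.16). No member was called in either fraction by any of the 3 tools, where edgeR called 0.297% of all genes in EPI and 0.868% in MES, and DESeq2 4.79% and 5.78%. The members at an unadjusted p under 0.05 were 1 of 9 in EPI (STMN2), beside 31.3% of all genes, and 0 of 9 in MES, beside 31.1%.

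Proneural factors work with partners and against inhibitors, which were read as lists. Their counts over the time course stand beside the 55.8% of all genes that passed the same test, and several lists are near that share. Of the 3 E protein partners, 3 changed over the time course. TCF4 rose between t0 and P5 by 1.18 on the log2 scale (SE 0.34, adjusted p = 0.0062). From P8 to P9 and P10, TCF12 rose by 1.41 (SE 0.26, adjusted p = 0.0030) and TCF4 by 1.56 (SE 0.32, adjusted p = 0.0052). Without P10 r1 these were 1.59 and 1.75, but each of the 2 late calls held in only 11 of 15 alternatives. TCF12 stood at 32847 to 46798 normalized counts in 4 of the 5 late libraries and at 12227 in P10 r1. Of the 11 HES, HEY and ID genes, 9 changed over time, 1 rose between t0 and P5 (10.0% of all genes did) and 2 rose between P8 and the late cultures (1.66% of all genes were called in either direction). The first was ID4, by 3.15 (SE 0.64, adjusted p = 3.3e-04). The late pair were ID1, by 3.52 (SE 0.60, adjusted p = 0.0017), and ID3, by 1.81 (SE 0.34, adjusted p = 0.0030). Without P10 r1 these were 3.73 and 1.97, but each of these late calls held in only 11 of 15 alternatives. ID1 was at 482, 819 and 2210 normalized counts at P8, at 14394 and 12054 at P9, and at 1292, 8647 and 16479 at P10. Over the 11 genes the median log2 difference between the late cultures and P8 was 0.71, beside -0.01 over all genes.

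Of the 10 Notch ligands, receptors and fringes, 8 changed over the time course, beside 55.8% of all genes. NOTCH2 rose by 1.14 between t0 and P5 (SE 0.18, adjusted p = 2.4e-05), and the ligand gene JAG2 fell by 3.19 (SE 0.50, adjusted p = 1.7e-05). DLL1, the ligand that neurogenins switch on, was at 91.3 to 105 normalized counts at t0, at 251, 13869 and 30999 at P1, and at 615 to 1292 at P4. The group mean was highest at P1 through r2 and r3, in which NEUROG2 was at 0, while r1 was highest at P3 (15911). DLL1 is also a gene of paraxial mesoderm, and the mesoderm gene TBX6 was at 138, 8967 and 11297 in the same 3 P1 libraries. The part of mesoderm in the DLL1 level was not tested. HES5, the Notch target of neural progenitors, was at 178 to 274 at P4 and at 0 to 2.51 at P9 and P10.

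**Figure D4:**
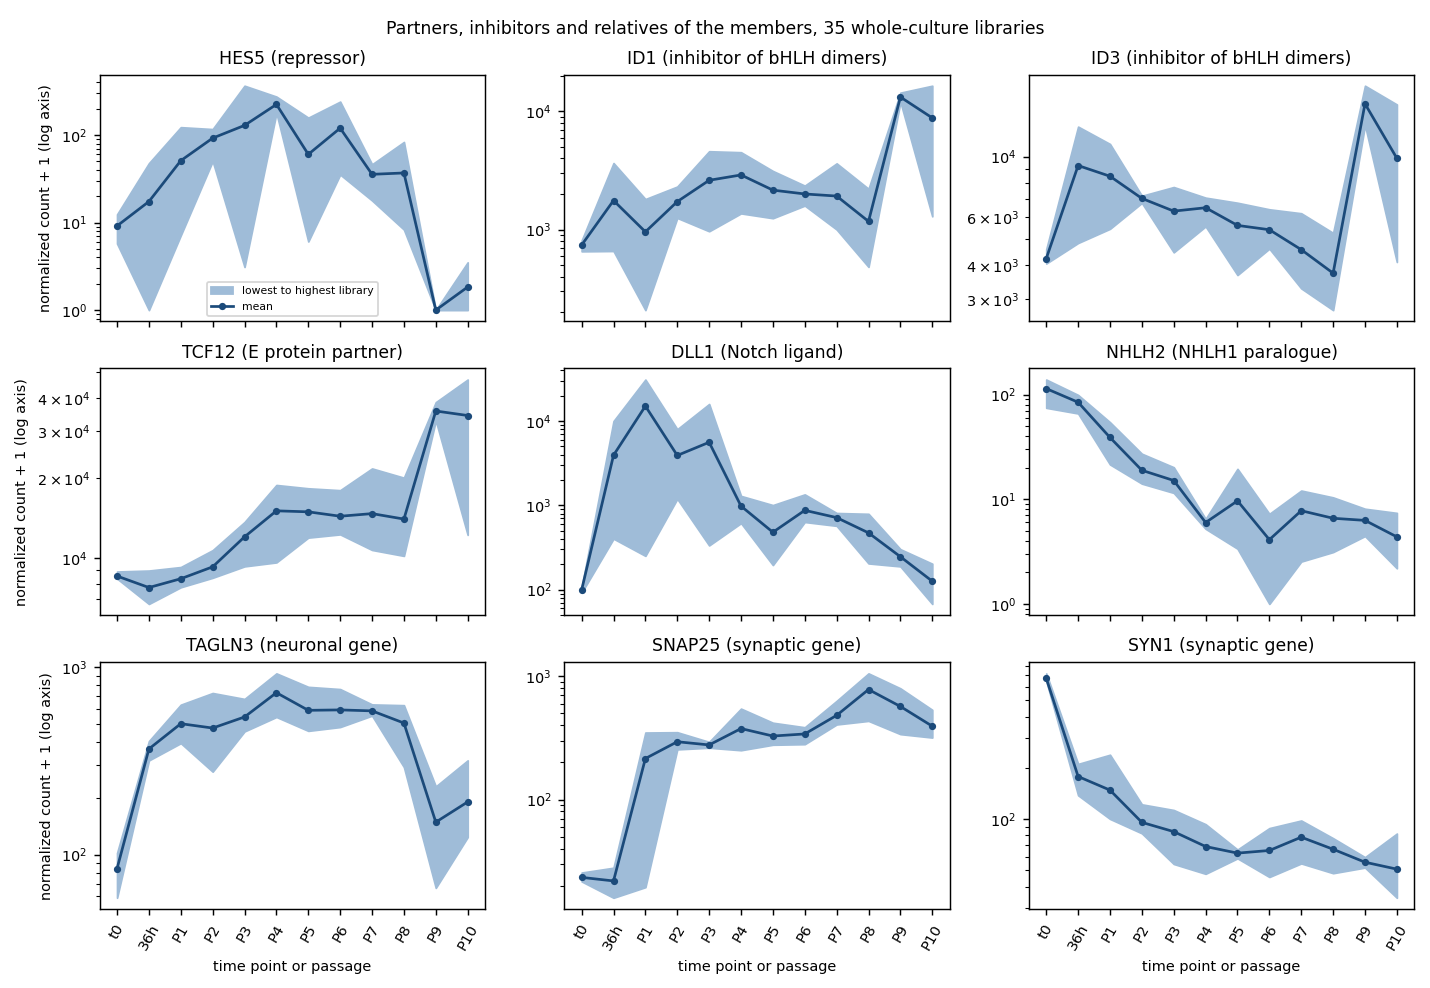
Normalized counts plus 1 (log axes) of 9 partner, inhibitor and related genes over the 12 whole-culture time points; the line is the group mean and the band runs from the lowest to the highest library. HES5 is at most 2.51 at P9 and P10, ID1 reaches 16479 at P10, the DLL1 mean is highest at P1 and NHLH2 and SYN1 are highest at t0.

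Of 10 other proneural and neuronal bHLH genes, 6 had enough counts to be tested and 4 of these changed over time (55.8% of all genes). BHLHE22, among the 4, held at most 11 normalized counts up to P8 and 69 to 117 in P9 and in P10 r2 and r3. It passed the count filter only through these late groups, so the count of 4 is a description. NHLH2, the close relative of NHLH1, was at 73.7, 126 and 138 normalized counts at t0 and at 2.37, 18.5 and 5.08 at P5. NHLH2 fell by 3.69 between t0 and P5 (SE 0.69, adjusted p = 1.3e-04), and OLIG2, a motor neuron progenitor factor, fell by 2.45 (SE 0.47, adjusted p = 1.6e-04). The other 4 tested genes did not pass and had positive fitted differences at P5 means of 26.6 normalized counts or fewer, and the median over the 6 was 2.05, beside 0.01 over all genes. Of 15 tested neuronal transcription factors and proneural targets, 8 changed over time, about the 55.8% of all genes. Between t0 and P5, TAGLN3, a neuronal calponin-family gene, rose by 2.85 (SE 0.42, adjusted p = 7.4e-06), and MYT1, ONECUT1 and SCRT2 fell. SCRT2 held 36.5 to 47.7 normalized counts at t0 and at most 5.54 in any other whole-culture library. It passed the count filter only through t0, so its fall and its part in the 8 are a description. The SCRT2 call held in 9 of 15 alternatives. MYT1, a zinc finger factor that promotes neurogenesis, fell by 3.96 (SE 0.81, adjusted p = 3.4e-04). TAGLN3 fell by 1.61 between P8 and the late cultures (SE 0.35, adjusted p = 0.0068), and by 1.84 without P10 r1. This late call held in 10 of 15 alternatives.

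Of the 17 neuron structure and synapse genes, 11 changed over the time course, near the 55.8% of all genes, and 2 rose and 4 fell between t0 and P5, where 10.0% of all genes rose and 13.4% fell. Their median log2 difference was -0.15 beside 0.01 over all genes. SNAP25, a synaptic vesicle fusion protein, rose by 3.92 (SE 0.61, adjusted p = 1.5e-05). SYN1, a synaptic vesicle protein, fell by 3.39 (SE 0.31, adjusted p = 9.6e-09), and DPYSL3 fell by 3.16 (SE 0.35, adjusted p = 1.7e-07). SYN1 was at 650 to 719 normalized counts in the stem cells and at 57.7 to 65.1 at P5, so a gene of mature neurons was highest before differentiation. NEFL, a neurofilament gene, fell by 2.75 between P8 and the late cultures (SE 0.61, adjusted p = 0.0074), and by 3.89 without P10 r1 (adjusted p = 1.9e-06). That NEFL call held in 11 of 15 alternatives. NEFL was at 116 to 206 normalized counts in the 4 late libraries with high DCX, at 2603 in P10 r1 and at 1433 to 3243 at P8.

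Relatives of the neuron members were read in the same way. Of 11 tubulin, stathmin, doublecortin-like and ELAVL relatives, 7 changed over time, near the 55.8% of all genes. At 36 h, when STMN2 was 1091 to 3648, TUBB2A rose by 3.13 (SE 0.72, adjusted p = 0.0051) and TUBB2B by 2.19 (SE 0.39, adjusted p = 5.4e-04), while STMN3 fell by 2.01 (SE 0.25, adjusted p = 6.5e-06). TUBB2B was then at 84484 to 125067 normalized counts, against 20717 to 25801 at t0. Between t0 and P5, DCLK2, a doublecortin-like kinase, rose by 3.68 (SE 0.59, adjusted p = 2.3e-05), TUBB4A fell by 5.60 (SE 0.95, adjusted p = 4.3e-05) and TUBB2B fell by 1.25 (SE 0.38, adjusted p = 0.0083). This TUBB2B call held in only 9 of 15 alternatives, and those of DCLK2 and TUBB4A in all 15. Beta-tubulin genes are close copies, so single-end reads shared between them can be split by the estimate of the counts. Among 4 repressors of neuronal genes, REST (adjusted p = 3.4e-04) and RCOR1 (0.0012) changed over the course. REST was at 4178 to 8083 normalized counts in all whole-culture libraries.

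Markers of other cells differed between the same libraries. The sum of 8 NC markers was 12977 to 50833 normalized counts at P8, 40727 to 43107 at P9 and 17514 to 43145 at P10. The sum of SOX2, CDX2 and NKX1-2 was 765 to 843 at P9 and 181 to 21141 at P10, with P10 r1 at the top. The high DCX of the other 4 late libraries thus came with few PNP markers, while low neurogenins were found in P10 r1 too, at 10.0 for NEUROG2 and 2.51 for NEUROG1. The part of each in the other was not tested.

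As a description, the genes whose 16 group means most resembled each member were listed among 15131 genes, by Pearson r on log2(normalized count + 1). The groups share cultures, so no p is given. For NEUROG2 they were PDX1 (0.95), LTBP1 (0.94) and PARP11 (0.94), and for NEUROG1 LNX2 (0.91), CDH20 (0.90) and FAM13C (0.89). For NHLH1 the closest was AC132192.2 (0.86) and for STMN2 RPS27L (0.93). GPR137C (0.95) was closest to DCX, HECA (0.92) to ELAVL3 and ATL1 (0.84) to TUBB3. No other member stood among the 3 nearest of any member, and NEUROD1 and NEUROD4 were too low to be matched.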

How the data were processed

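RNA from 47 libraries was sequenced as 75 bp single-end reads after poly(A) selection. According to the submitters' processing notes the authors used cutadapt 1.16, STAR 2.5.2b and RSEM 1.3.0 on GRCh38, and they deposited per gene RSEM expected counts, TPM and FPKM (not used here). The deposited expected counts, of which 9.33% were not whole, were rounded, and the deposited TPM, which the authors' RSEM run scaled for gene length and library size, were used for levels between genes and for limma on log2(TPM + 1) and log2(TPM + 0.1). GENCODE 29 symbols matched 57447 of 58051 genes. The members and lists were chosen with earlier results of these data known.

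Differences were tested with edgeR 4.0.16 (quasi-likelihood, TMM, filterByExpr; R 4.3.3) with the replicate number as a block, over 35 whole-culture libraries (21750 genes, biological variation 34.0%) and 12 fraction libraries (18885 genes, 22.8%). A gene was called at a Benjamini-Hochberg false discovery rate under 1% with a 2-fold change or more (the F-test over time by the rate alone). Per the series' design text each differentiation was sampled along the course (r3 has no P9 library), so the block followed its number. Deviations from group means correlated at 0.14 on average for libraries of the same number and at -0.07 for others in whole cultures (lowest pair of the same number -0.20), at -0.01 and 0 between t0 and 36 h, and at 0.42 and -0.21 in fractions. Within a passage the fractions paired more closely, at 0.65 and -0.32 at P5 and at 0.78 and -0.38 at P8. The block on the replicate number does not take up that part of the pairing. No libraries of a group agreed within sampling noise. The fits were tested on simulated data before use. DESeq2 1.42.0 and limma 3.58.1 were alternatives.

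Normalized counts are rounded counts over TMM size factors. All members were named, with up to 4 called genes of the largest change in the comparison described, from each list described beyond its summed level, and partners, repressors or relatives of a member. Genes chosen after their values were seen were SOX2, TFAP2A, TFAP2B, POU5F1, MSGN1 and TBX6, markers of libraries that stand apart. PAX3, BHLHE22, DLL1, HES5 and REST were also chosen in this way.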

Additional observations from a re-analysis of the deposited data

How the results depend on the processing

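The count of members called kept within 1.5 times of that reported in 128 of 141 alternatives and moved in 13. For the time course, 5 members were reported, 3 passed with a base mean of at least 100, and 2 to 5 passed with each replicate left out. Between t0 and P5, 2 members were reported and 1 passed with a base mean of at least 100, 1 with limma on log2(TPM + 1), and 1 without any replicate (range 1 to 1). Between P8 and the late cultures 0 were reported, against 2 with DESeq2 and 1 with all 47 libraries in the fit. At a rate of 5% 2 passed, and without P10 replicate 1 the count was 1. A fit without r1 or without r2 leaves a single library at P9, so counts with a replicate left out are not given there. Without the replicate block, the time course gave 6 members, P5 against t0 gave 2, and the other comparisons 0, so the block changed the call of NHLH1 alone. Of 915 alternatives for single genes, 817 kept direction and call, 86 lost the call, 12 gained it and 0 reversed. The causes were not tested.

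Counts over all genes moved more. At 36 h 831 genes were called, against 1366 with DESeq2 and 174 with the compared groups alone. P8 against P5 gave 2 and 213 with DESeq2. The late cultures gave 361, against 1091 with DESeq2, 45 without the block and 0 with the compared groups alone. P5 MES against EPI gave 0, against 832 with DESeq2 and 343 with the block within passage, which was chosen after seeing the data. P8 against P5 gave 56 in EPI and 164 in MES, against 905 and 1092 with DESeq2 and 0 and 1 without the block. The interaction and the F-test have no fit on the compared groups alone. NEUROG1, NEUROD1 and NEUROD4 were above 3 counts in 17 of 35 whole-culture libraries each, and in the others they were not told from 0 at this depth.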
